A study of Olea europaea var. sylvestris with 6 samples.

Results

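The 200 most constant of the well-expressed genes in wild olive stems are described here, out of 50668 genes in the table. They were chosen by their measured values. Levels are given as CPM, the count of a gene divided by the total of its library and multiplied by 1000000. Genes with a mean of at least 50 CPM over 6 libraries were taken, 4443 in all. The 200 most abundant of these were left out, and among the 4243 eligible genes that remained, the 200 with the lowest coefficient of variation (SD divided by mean, over all 6 libraries) were kept. They make up 4.71% of the eligible genes.

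The libraries came from stems of Olea europaea var. sylvestris, the wild form of the olive tree. A single certified variety stands for each group: AC18, which the submitters class as tolerant, and AC15, classed as susceptible. Each had 3 biological replicates from plants that received no treatment, stood 40 to 52 cm high at an age of 6 to 10 months, had been raised from rooted stem cuttings on their own roots, and had spent 2 months in a greenhouse. A variety multiplied by cuttings is a clone, so the groups compare these genotypes and not tolerant with susceptible olives in general.

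Genes whose transcripts hold a constant share of the messenger RNA serve as references in expression work. In quantitative PCR, the signal of a target gene is divided by that of a reference gene to remove differences in the amount of RNA between samples. Classical references of plants, such as actin, tubulin, ubiquitin and elongation factor genes, act in processes that most living cells need, but none is constant in every tissue or variety, and references are therefore tested anew for each material. A stem mixes wood, phloem, cambium, green cortex and epidermis. In such a bulk sample, fewer cells of a type and less RNA per cell cannot be told apart, and a gene can keep a constant share while tissues change in opposite ways.

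The members are known here by their identifiers alone. None of the 50668 identifiers (0 matches) was found among the 47911 genes of the RefSeq table for wild olive, so no product names, functions or positions were given to them. Whether the classical reference genes are among the members, and whether markers of wood or phloem are expressed as the stem label implies, could not be examined for the same reason.

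Library totals ran from 7468058 to 8589143 estimated counts. Replicate 2 of AC15 stood apart from its own group. Over genes with at least 20 counts in a pair of libraries, it gave a chi-square per gene of 4.83 against replicate 1 and 4.47 against replicate 3, where those replicates gave 1.79 against each other and 1 would be sampling noise alone. In the members the values for the same pairs were 1.27, 1.08 and 0.87, but low values there follow from their selection on these libraries. The results below are therefore also given without this library where it matters.

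The members spanned most of the permitted range of abundance, from a mean of 50.04 CPM in Oeu059223.1 to 418 CPM in Oeu055288.1, with a median of 106 CPM. In counts, that is 399 to 3334 per library. The coefficient of variation ran from 1.15% to 4.17%, with a median of 3.47%, where the median of the eligible genes was 13.0%. The highest of the 6 libraries exceeded the lowest by 1.03-fold to 1.13-fold in single members. All of these values follow from the selection and describe it. At its edge, Oeu016354.1 and Oeu043699.1 were the last genes inside, each with a coefficient of 4.17%, and Oeu011691.2, at 4.17%, and Oeu048232.2, at 4.18%, were the first outside. The limit thus cuts through a continuous distribution and separates no distinct class of genes.

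The steadiest member was Oeu057630.1. It had 204.6, 202.6 and 201.7 CPM in AC15 replicates 1, 2 and 3 and 207.4, 201.8 and 206.0 CPM in the AC18 replicates, a mean of 204 ± 2.3 CPM (SD over 6 libraries). The AC18 values enclosed almost the whole AC15 range. Oeu019136.1 followed with 234.6, 240.5 and 239.4 CPM in AC15 and 243.5, 240.6 and 241.6 CPM in AC18. Its genotypes did not overlap, but the gap between AC15 replicate 2 and AC18 replicate 2 was smaller than the spread within AC15. Oeu062877.3, a less abundant gene, had 74.2, 73.5 and 72.1 CPM in AC15 and 71.5, 73.5 and 73.1 CPM in AC18, with each genotype reaching into the range of the other. For Oeu012204.1 the values were 147.6, 148.8 and 146.0 CPM in AC15 and 150.6, 145.7 and 145.5 CPM in AC18. Here AC18 held both the highest and the lowest library. Oeu034983.1 and Oeu016679.1 completed the 6 steadiest genes, with means of 135 ± 2.0 and 70.1 ± 1.1 CPM (SD over 6 libraries).

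**Figure D1:**
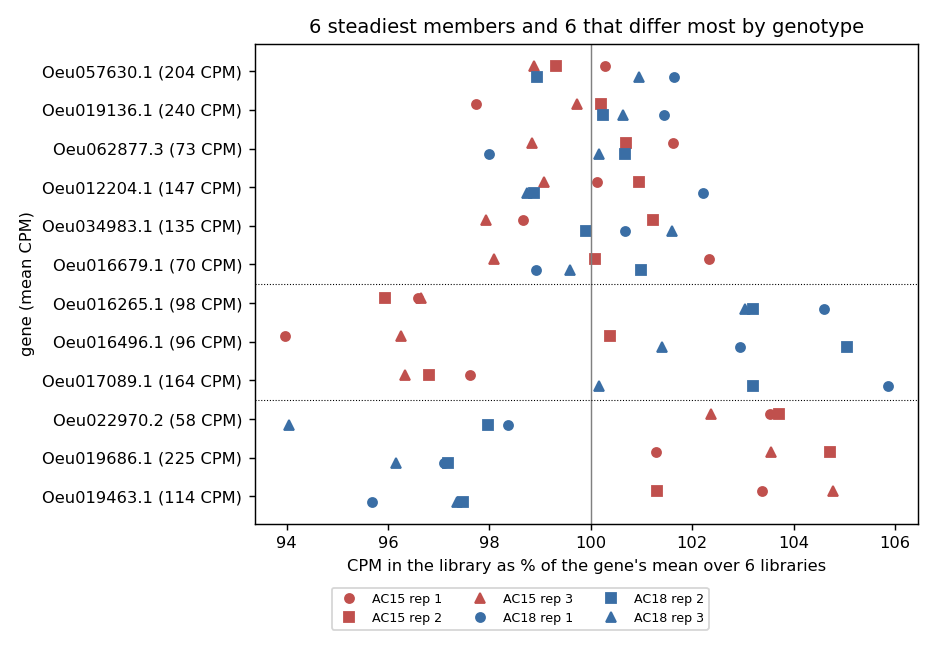
CPM in each library as a percentage of the gene's mean over 6 libraries (x axis) for the 6 members with the lowest coefficient of variation (top), the 3 with the largest fitted change towards AC18 (middle) and the 3 with the largest towards AC15 (bottom). Each symbol is 1 library, red for AC15 and blue for AC18. The genotypes are mixed for most of the steadiest genes and lie apart for the 6 genes below them.

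At the upper end of abundance, Oeu055288.1 had 413, 421 and 402 CPM in AC15 and 427, 417 and 428 CPM in AC18. The AC15 replicates were lower on average, and AC15 replicate 2 lay within the AC18 range. Oeu005159.1 varied more within the genotypes than between them, with 403, 378 and 391 CPM in AC15 and 404, 403 and 375 CPM in AC18. At the lower end, Oeu059223.1 had 49.1, 49.0 and 50.4 CPM in AC15 and 48.3, 49.4 and 54.0 CPM in AC18. A single library, AC18 replicate 3, accounted for most of its range. Oeu028693.1 and Oeu017928.1, the next least abundant members, had means of 50.4 ± 1.1 and 50.5 ± 1.2 CPM (SD over 6 libraries).

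Much of the spread that was left in the members was no larger than counting error. If every count were an independent read, a gene with a given mean count would vary by the inverse square root of that count. For the members this counting error was 1.73% to 5.004%, with a median of 3.44%, beside their median coefficient of variation of 3.47%. The coefficient lay below the counting error in 108 of the 200 members (54.0%) and in 127 of the 4243 eligible genes (2.99%). A chi-square of the 6 counts against the library totals, divided by its 5 degrees of freedom, had a median of 0.925 in the members and 12.7 in the eligible genes. Choosing the lowest values favours genes whose counting errors happened to be small, so a value under 1 does not show that a gene varies less than sampling allows. The counts are estimates from kallisto and copies made by PCR were not marked, so the counting error is a guide and not an exact limit.

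The lowest chi-square belonged to Oeu062877.3, at 0.102, and the next to Oeu014052.2, at 0.114. Oeu014052.2 had 405, 454 and 405 counts in AC15 and 417, 414 and 448 in AC18, or 54.2, 53.5 and 54.1 CPM and 52.7, 52.5 and 52.2 CPM. The genotypes did not overlap, although all 6 values lay within a range smaller than the counting error of 4.86%. The members with most variation beyond counting error were abundant ones. Oeu028075.1 had 362, 385 and 386 CPM in AC15 and 402, 372 and 364 CPM in AC18, a coefficient of 4.09% where counting error was 1.82%. Both genotypes held high and low libraries of this gene. Oeu045328.2 had 247, 247 and 258 CPM in AC15 and 275, 262 and 253 CPM in AC18, with AC18 replicate 1 the highest.

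The coefficient of variation selected unequally over abundance. The eligible genes were split by mean CPM into 4 classes of nearly equal size. The members took 34 of 1061 genes (3.20%) in the lowest class, 50.02 to 63.4 CPM, and 75 of 1061 (7.07%) in the highest, 135 to 437 CPM. In the lowest class all 34 members varied less than their counting error, and in the highest 13 of 75 did. All 23 members with a chi-square per degree of freedom above 2 were in the highest class. When variance above counting error was used in place of the coefficient, 149 of the 200 members were chosen again, and the genes chosen had a median of 77.8 CPM. That lay below the median of 84.7 CPM of the eligible genes, so this measure did not select evenly over abundance either.

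**Figure D2:**
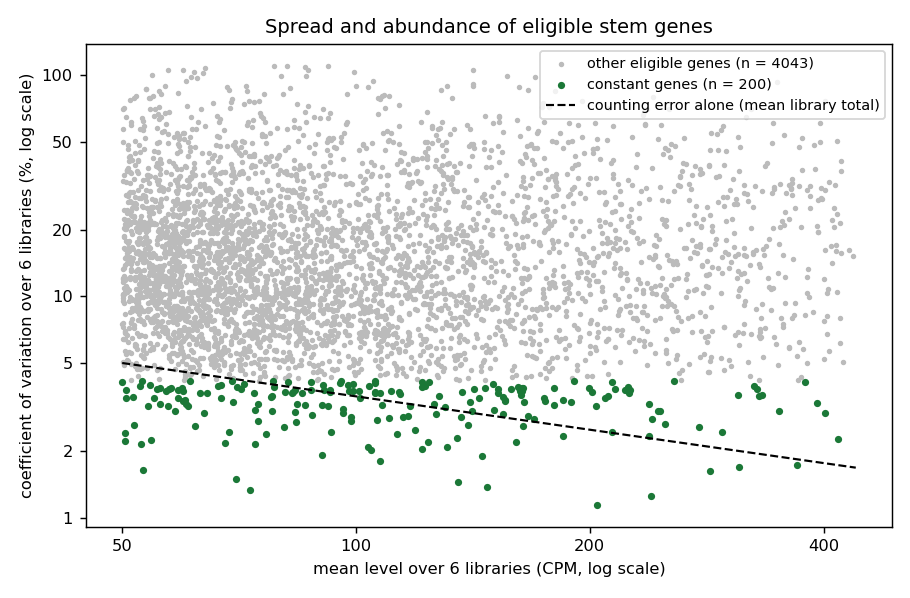
Coefficient of variation over 6 libraries against mean CPM, both on log axes, for the 4243 eligible genes. Green points are the 200 members, grey points the other eligible genes, and the dashed line is the counting error for the mean library total. The members lie along the lower edge, below the line at low abundance and on both sides of it at high abundance.

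As a set, the members took a nearly equal share of every library, which the selection for constant CPM fixed in advance. Their counts summed to 2.64%, 2.67% and 2.65% of the AC15 libraries and 2.66%, 2.65% and 2.63% of the AC18 libraries. The 3 AC15 libraries averaged 2.65% ± 0.014 (SD, n = 3), and the 3 AC18 libraries 2.65% ± 0.015 (SD, n = 3). Each AC15 share lay within or close to the AC18 range. The median deviation of a member from its own mean was between -0.47% in AC18 replicate 3 and 0.60% in AC15 replicate 2, and the largest single deviation was 8.41%, in AC15 replicate 2. That library was the highest of the 6 for 53 members (26.5%), beside 24.9% of the eligible genes, and the lowest for 26 (13.0%), beside 20.1%.

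**Figure D3:**
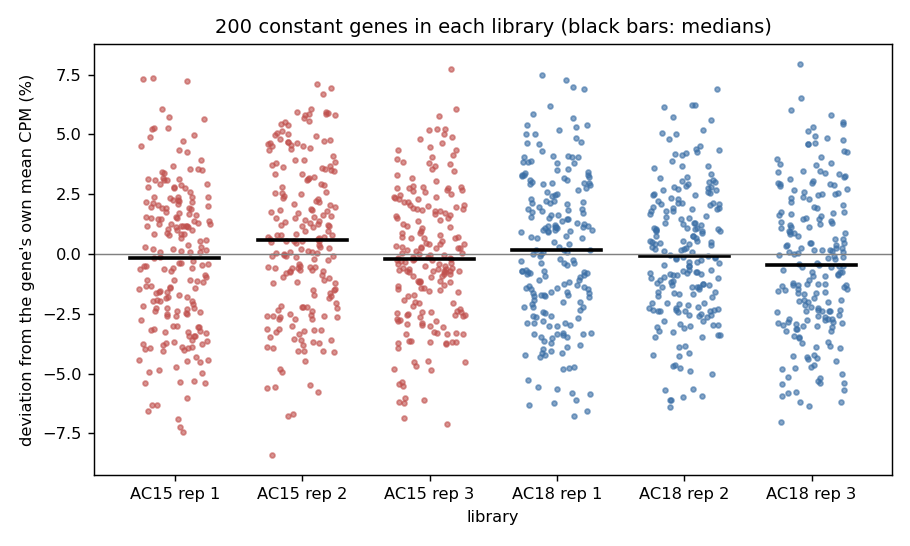
Deviation of each of the 200 members from its own mean CPM (y axis, %) in each library (x axis). Each point is 1 gene, red for AC15 and blue for AC18, and black bars are medians. The medians lie between -0.47% and 0.60%, and the clouds of the 6 libraries cover nearly the same range.

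The following values use the same CPM from which the members were selected, so low spread within each genotype and between paired libraries was fixed by the rule. Their median coefficient of variation was 2.83% over the 3 AC15 libraries and 2.77% over the 3 AC18 libraries, and 103 of 200 (51.5%) were steadier in AC15. Among the eligible genes the medians were 5.78% and 4.24%, and 36.0% were steadier in AC15. Between paired libraries, the median difference of a member was 2.87% for AC15 replicates 1 and 3 and 3.50% for replicates 1 and 2. For the 9 pairs from different genotypes it was 3.09% to 4.10%, where the eligible genes differed by 20.2% to 23.2%.

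AC15 replicate 2 departed most from the other 5 libraries in 4 members that illustrate its part in their spread. Oeu054314.1 stood at 175 CPM in that library and at 159 to 165 CPM in the others, which is 8.65% above their mean. In Oeu046195.2 the same library read 106 CPM and the others 95.9 to 100.1 CPM. In the opposite direction, Oeu057560.2 read 63.5 CPM in AC15 replicate 2 and 69.9 to 71.0 CPM elsewhere, a deviation of -9.93% from the mean of the others. Oeu017195.1 read 152 CPM there and 161 to 168 CPM elsewhere. In all 4 genes the remaining AC15 replicates lay within or near the AC18 range.

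The genotypes were compared by edgeR's quasi-likelihood test, fitted to all 24018 genes with enough counts and scaled by TMM, which adjusts library totals so that most genes are centred. A gene is called where its Benjamini-Hochberg adjusted p is under 0.05. All 200 members passed the filter on low counts. None of them was called (0 of 200), beside 59.5% of all genes tested and 70.4% of the eligible genes. At an unadjusted p under 0.05 there were 4 members, all fitted higher in AC15, beside 63.3% of all genes tested and 73.7% of the eligible genes. With library totals alone there were 0 such members, beside 3104 of the 4243 eligible genes, and with the members as the scale there were also 0. The low counts follow from the selection, which used the libraries of both genotypes, and nothing is read from them. Without AC15 replicate 2, edgeR called 5 members, Oeu023973.1, Oeu002520.1, Oeu005169.1, Oeu019463.1 and Oeu040544.2. With all libraries, limma voom called 2, Oeu023973.1 and Oeu019686.1. All of these calls were higher in AC15. Of all genes tested, 58.6% were called without AC15 replicate 2 and 59.1% by limma voom. In the main fit of all libraries, edgeR called 30% of all genes tested higher in AC15 and 29.5% higher in AC18. The calls of members came from fits with TMM scaling, and in the main fit 167 of the 200 members were fitted higher in AC15. Oeu002520.1, Oeu005169.1 and Oeu040544.2 are named after their values were seen.

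For 193 of the 200 members, the fit bounded the difference at less than 1.2-fold up or down with its 95% interval, beside 5.94% of all genes tested and 20% of the eligible genes. As with the calls, the selection on these libraries made small differences all but certain, and nothing is read from the contrast. The number was 200 with library totals alone, and 154 to 193 when single libraries were left out, the lowest without AC18 replicate 1. The interval reached 1.10-fold to each side in the median member and 1.11-fold in the median eligible gene. A difference between the genotypes smaller than 1.10-fold was thus usually not detectable in a single member. The largest fitted differences ran the same way in every library. Oeu022970.2 had 59.9, 60.0 and 59.2 CPM in AC15 and 56.9, 56.6 and 54.4 CPM in AC18, all AC15 libraries above all AC18 libraries. Its log2 fold change, AC18 minus AC15, was -0.14 ± 0.08 (SE; edgeR adjusted p = 0.11). Oeu019686.1 had 228, 235 and 233 CPM in AC15 and 218, 218 and 216 CPM in AC18, again without overlap. Its log2 fold change was -0.14 ± 0.06 (SE; edgeR adjusted p = 0.0502), and limma voom gave an adjusted p of 0.0389.

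Besides Oeu019686.1, the members with an unadjusted p under 0.05 by edgeR were Oeu023973.1, Oeu019463.1 and Oeu009160.2, of which the last was named after its values were seen. Oeu023973.1, one of the most abundant members, had 410, 409 and 417 CPM in AC15 and 393, 389 and 390.5 CPM in AC18. Oeu019463.1 had 117, 115 and 119 CPM in AC15 and 109, 111 and 111 CPM in AC18. Oeu009160.2 had 217.7, 218.5 and 216.0 CPM in AC15 and 203.3, 210.5 and 201.1 CPM in AC18. In each of them the AC15 libraries were all higher, and edgeR's adjusted p was 0.0754, 0.0696 and 0.0648, respectively.

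In the opposite direction, Oeu016265.1 had 94.4, 93.8 and 94.5 CPM in AC15 and 102, 101 and 101 CPM in AC18. The spread within either genotype was under 1% of the level, and the groups were well apart. With TMM scaling its log2 fold change was 0.06 ± 0.07 (SE; edgeR adjusted p = 0.47), and with library totals alone it was 0.10. Oeu017089.1 had 160, 159 and 158 CPM in AC15 and 173, 169 and 164 CPM in AC18, and Oeu016496.1 had 90.0, 96.1 and 92.2 CPM in AC15 and 98.6, 100.6 and 97.1 CPM in AC18. Neither overlapped between the genotypes. In all, the CPM values of the genotypes did not overlap for 28 members. AC18 was the higher one in 15 of them and AC15 in 13. Ranges without overlap were found for 63.1% of all genes tested and 72.9% of the eligible genes. Selecting members for low variation over both genotypes made such ranges rare among them in advance. With 3 libraries per genotype, ranges can also separate by chance, so nothing is read from this contrast.

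Constancy held relative to a scale, and the choice of scale moved the members together. On CPM the median log2 ratio of the members, AC18 minus AC15, was -0.01, and 110 of 200 had the higher mean in AC15. In the TMM fit their median log2 fold change was -0.05 and 167 of 200 were fitted higher in AC15. The TMM factors were 0.975 to 0.997 for the AC15 libraries and 0.999 to 1.03 for AC18. Factors computed from the summed counts of the members were 0.996 to 1.01 in AC15 and 0.993 to 1.00 in AC18, close to those of plain totals, as the selection on CPM ensures. With the members as the scale, the median log2 fold change of all genes tested was 0.04, beside -0.01 with TMM, and 14124 genes were called, beside 14302. The balance of calls moved from 7086 higher in AC18 and 7216 higher in AC15 with TMM to 7652 and 6472 with the members as the scale. Library totals alone gave 7651 and 6512. The data hold no added standard by which one scale could be preferred.

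Repeating the selection on TMM totals returned 114 of the 200 members, and on DESeq2 size factors 125. The genes chosen on TMM totals had a median log2 CPM ratio of 0.05, AC18 minus AC15, so on plain CPM they lay slightly higher in AC18. The measure of spread mattered less. With the SD of log2(CPM + 1), 196 members returned, and with the range divided by the mean, 173. A minimum of 25 CPM in place of 50 returned 155, and one of 100 CPM returned 109, since members below that level could no longer be chosen. When no abundant genes were left out, 185 returned, and 15 of the 200 most abundant genes were at or under the members' limit of 4.17%. The median coefficient of those 200 genes was 19.0%.

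**Figure D4:**
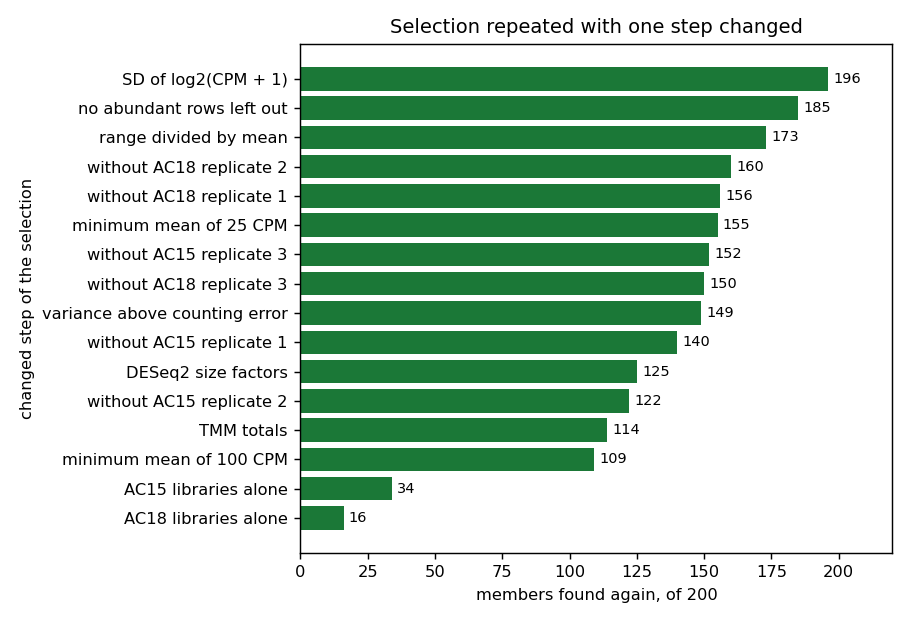
Number of the 200 members chosen again (x axis) when 1 step of the selection was changed (y axis). Each bar is 1 repeat. The SD of log2(CPM + 1) returned 196, single left-out libraries 122 to 160, TMM totals 114, and the libraries of a single genotype 34 and 16.

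A library that took no part in the selection gives values that the selection did not use, but it is only a partial check. The other 5 libraries always hold both genotypes, so the choice already leaves out genes that differ between them. Eligible genes differed by 20.2% to 23.2% between paired libraries of different genotypes and by 4.30% to 8.46% within a genotype. Closeness in the library left out was therefore partly set by the choice, and the 6 choices share libraries and are not independent. For each library in turn, the 200 steadiest genes were chosen on the other 5 and read in the one left out. Their median absolute deviation from the mean of those 5 was 4.44%, 6.37% and 3.63% in AC15 replicates 1, 2 and 3 and 4.12%, 3.27% and 4.19% in the AC18 replicates. The eligible genes deviated by 12.4% to 14.7%. Genes chosen without a library were thus closer to their mean in it than eligible genes were, in 6 of 6 libraries. Between 84 and 130 of the 200 chosen genes lay within 5% in the library left out, fewest in AC15 replicate 2, and 0 to 8 lay beyond 20%, most in the same library. Beyond 20% there were 31.5% to 37.8% of the eligible genes.

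**Figure D5:**
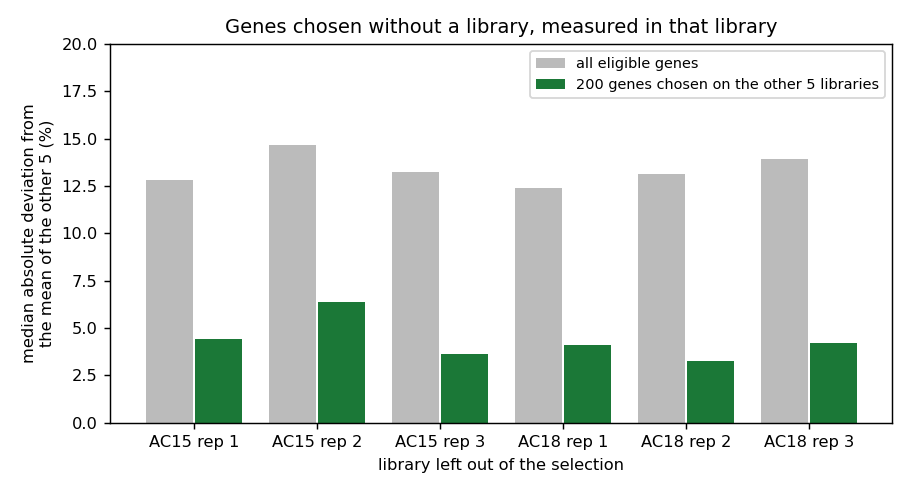
Median absolute deviation (y axis, %) in a library that was left out of the selection (x axis), from the mean of the other 5. Green bars are the 200 genes chosen on the other 5 libraries and grey bars all eligible genes. The green bars stand at 3.27% to 6.37%, each below its grey neighbour, and the highest is AC15 replicate 2.

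Counting error did not cover all of the deviation in the unused library. Within 2 standard errors of counting lay 53.5% of the chosen genes in AC15 replicate 2 and 71.0% to 88.5% in the other libraries, beside 28.3% to 35.1% of the eligible genes. The selections without 1 library returned 122 to 160 members, with 122 in the case of AC15 replicate 2. A core of 93 members was chosen in all 6 of these selections. It included the 6 steadiest genes named above, had a median of 115 CPM, and reached a coefficient of variation of 3.57% at most.

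Genes chosen as steady over the 3 libraries of 1 genotype were almost as variable within the other as the eligible genes were. From the 4243 eligible genes, whose mean level was set over both genotypes, the 200 with the lowest coefficient over the 3 AC15 libraries were taken. They shared 35 genes with the members, and the 200 taken in the same way on the AC18 libraries shared 16. When the limits on abundance were also set within 1 genotype, the numbers were 34 and 16. The AC15 choice had a median coefficient of 3.89% within AC18, beside 4.24% for the eligible genes. The AC18 choice had 5.66% within AC15, beside 5.78%. The highest coefficient chosen was 1.46% within AC15 and 0.965% within AC18, under the median counting error of 3.85% of the eligible genes. Values this low over 3 libraries can come from counting error alone, so these choices cannot show whether steadiness is particular to a genotype. In all, 9 of the 200 genes were chosen in both genotypes, near the 4.71% that 200 genes make up of the eligible genes. Of these 9, 4 were members, and nothing is read from either count.

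Genes chosen as steady within a genotype differed between the genotypes about as often as the eligible genes did, and the same limit applies. The median absolute log2 ratio of the genotype means was 0.26 for the AC15 choice and 0.28 for the AC18 choice, beside 0.30 for the eligible genes. The SD of that median over the 3 libraries of the other genotype was 0.014 and 0.010. By edgeR, 134 (67.0%) and 140 (70.0%) of these genes were called, beside 70.4% of the eligible genes. At least 2-fold apart were 15 (7.50%) and 21 (10.5%), beside 10.6%. Ratios of at most 1.2-fold were found for 101 (50.5%) and 92 (46.0%), beside 44.9%. The median was not stable to the way of choosing. With variance above counting error it was 0.37 and 0.40, and 161 and 144 of the 200 genes were then higher in the other genotype. These genes had medians of 51.1 and 51.7 CPM in the genotype used and of 67.1 and 63.3 CPM in the other. The limit on the joint mean was 50 CPM, and its part in the shift was not tested. The choice by coefficient of variation was also repeated among the 3500 eligible genes with at least 50 CPM in each genotype. The median was then 0.21 for the AC15 choice and 0.26 for the AC18 choice, beside 0.25 for those 3500 genes. The choice by variance above counting error was not repeated with this limit.

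The members themselves were not all steady within both genotypes. A coefficient at or under 4.17% within AC15 and also within AC18 was found for 673 eligible genes, 124 of them members. Of the other 549, 60 were at least 2-fold apart between the genotypes. Since the members were taken out for their small differences, the remaining genes had to differ more, and these counts are a description. A gene low in 1 genotype could also pass the limit of 50 CPM through the other genotype alone. With at least 50 CPM in each genotype there were 489 such genes, of which 41 were at least 2-fold apart. The 4 examples that follow are no members and were chosen after their values were seen, as the 2 most different in each direction. All 4 passed the limit through the genotype in which they were high. Oeu020046.1 had 7.63, 7.54 and 7.21 CPM in AC15 and 116, 122 and 114 CPM in AC18, and Oeu044279.1 had 20.4, 19.3 and 20.8 CPM in AC15 and 194, 188 and 180.2 CPM in AC18. Oeu035905.1 had 173, 169 and 170 CPM in AC15 and 24.3, 25.1 and 23.3 CPM in AC18, and Oeu006689.1 had 127, 127 and 121 CPM in AC15 and 23.8, 22.6 and 23.3 CPM in AC18.

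The identifiers offer the only property of the members that the selection did not use. Each ends in a number after a point, whose meaning is not given in the sources used here. It was above 1 for 55 members (27.5%) and for 771 eligible genes (18.2%). By class of abundance, from lowest to highest, it was above 1 for 20.6%, 29.4%, 33.3% and 25.3% of the members and for 18.5%, 18.0%, 21.2% and 14.99% of the eligible genes. The share was higher among the members in 4 of 4 classes, by counts of 7, 10, 19 and 19 members. This is a description, and no test was run on it.

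In the numbering of the identifiers, few members lay close together. No pair had consecutive numbers (0 of 200 members), and 8 members formed 4 pairs within 10 numbers. These were Oeu005159.1 with Oeu005169.1, Oeu038812.2 with Oeu038820.2, Oeu045233.2 with Oeu045235.2, and Oeu053886.3 with Oeu053892.1. Of 34 eligible genes numbered directly beside a member, 0 were members, where members make up 4.71% of the eligible genes, and 34 genes are too few to tell these shares apart. An eligible gene with an adjacent number was present for 16.0% of the members and for 18.2% of the eligible genes. The 34 genes had a median coefficient of variation of 14.1%, close to the 13.0% of the eligible genes. Whether consecutive numbers mean neighbouring genes on a chromosome could not be checked here.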

How the data were processed

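Stranded libraries of poly(A) RNA from stems were sequenced in pairs of 100 bases, per the labels' protocols. The deposited table holds estimated counts, whole numbers used as they are, and kallisto 0.46.1, Trimmomatic and FastQC are the tools in the submitters' processing notes. The transcript reference is not given in the sources used here. kallisto divides reads among similar transcripts, so counts of near-identical copies are uncertain. CPM was computed from column totals.

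Genotypes were compared with edgeR 4.0.16 in R 4.3.3 (robust quasi-likelihood fit, TMM, filterByExpr with a minimum count of 10 and a minimum total of 15, two-sided, genotype as the only factor). P-values were adjusted over all 24018 genes. DESeq2 1.42.0 and limma 3.58.1 served as alternatives, and the scripts were tested on simulated data. Standard errors came from the coefficient and its F statistic. With 3 libraries per genotype, p-values rest on the spread between these plants. The fit draws the spread of each gene towards that of other genes. For genes of low spread, such as the members, p-values and standard errors therefore do not measure the gene's own spread alone.

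The selection rule and the lists were chosen with earlier results of these data known. The named genes are the members at the ends of the ranking by coefficient of variation, abundance, fitted fold change, counting error and deviation of AC15 replicate 2, and those at the limit. Lists of reference genes and tissue markers needed product names and were not run. Replicate numbers were not used as a pairing, since the labels do not say that they mark one, and deviations of same-numbered libraries correlated at -0.03, -0.02 and -0.05. No libraries agreed within sampling noise over all genes. The labels name no batch.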

Additional observations from a re-analysis of the deposited data

How the results depend on the processing

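The number of members called between the genotypes was 0 with edgeR and with library totals, DESeq2 size factors, the members as scale, no filter, a filter of 1 CPM in 3 libraries and the DESeq2 test. It was 2 with limma voom, beside 59.1% of all genes tested. Leaving out single libraries gave 0 to 5, with 5 without AC15 replicate 2 and 0 without each of the others. A replicate block gave 0 members and 14191 of all genes, and 0 of 6 libraries were closest in their deviations to the same-numbered one. The calls over all genes ran from 12461 of 30609 tested (40.7%, DESeq2) to 15887 of 33891 (46.9%, no filter), beside 14302 of 24018 (59.5%) in the main fit. Without single libraries they were 12893 to 14332, or 52.6% to 58.6% of the genes tested, the highest without AC15 replicate 2. Members chosen again were 114 with TMM totals, 125 with DESeq2 size factors, 109 with a minimum of 100 CPM, 34 with AC15 libraries alone and 16 with AC18 libraries alone, the limits on abundance included, and 122 to 160 without single libraries.

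For genes steady within AC15, the median absolute log2 ratio between genotypes was 0.26, and it was 0.22 for the 100 steadiest genes, 0.37 with variance above counting error, 0.21 with at least 50 CPM in each genotype, and 0.24 to 0.32 without single libraries. For genes steady within AC18 it was 0.28, and it was 0.31 for the 100 steadiest, 0.30 with TMM totals, 0.40 with variance above counting error, 0.26 with at least 50 CPM in each genotype, and 0.28 to 0.32 without single libraries. The limit of 50 CPM in each genotype was added after the data were seen. The cause of these shifts was not tested. Of 406 fold changes of named genes under alternatives, 402 kept their side of the threshold and 4 passed it, in Oeu023973.1, Oeu019686.1 and Oeu019463.1. Depth limits the members most at 50 CPM, where counting error alone is 5.004%.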
